A study of Caenorhabditis elegans with 2 samples.

Results

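The 10 genes described here act in insulin signalling and in the response of worms to starvation and refeeding. They were chosen by name: the insulin-like peptide genes ins-14 and ins-39, the receptor gene daf-2, the signalling genes age-1, daf-18 and akt-1, the transcription factor genes daf-16, pqm-1 and hlh-30, and the energy sensor gene aak-2. They are 10 of 19973 protein-coding genes on the nuclear chromosomes. The choice was made with earlier results of these data known, so how many of the 10 carry a site is a description and was not tested.

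The study mapped where EGL-13, an HMG-box transcription factor of the SOX family in Caenorhabditis elegans, was recovered on chromatin. All worms were hermaphrodite L1 larvae of strain GOU883, a transgenic line with an insertion targeting egl-13, in which EGL-13 has a GFP-FLAG tag at its C terminus. They were taken 6 h after synchronization as L1 larvae starved after bleaching, and the labels do not say whether they had been fed by then. There were 2 libraries, biological replicates 3 and 4, in 1 group, so no conditions were contrasted and fed larvae were not set against starved ones. Chromatin of whole larvae was precipitated with an anti-GFP antibody, so a region can come from few cells or many, which cannot be told apart.

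In worms, insulin-like peptides bind the receptor DAF-2, which activates the lipid kinase AGE-1. The phosphatase DAF-18 reverses the AGE-1 reaction. When the pathway is active, kinases including AKT-1 phosphorylate the FOXO factor DAF-16 and keep it out of the nucleus. When food is missing, DAF-16 enters the nucleus and holds hatched L1 larvae in developmental arrest. AAK-2, a catalytic subunit of the AMP-activated kinase, and HLH-30, the worm TFEB protein that drives autophagy and lysosome genes, also act in survival of starvation.

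The authors deposited a list of 2294 regions that passed a reproducibility threshold, called optimal sites here. They are the 2294 strongest of 30000 regions called on both replicates pooled, most of them background. Lists of 30000 regions were also called on each replicate alone. The authors' caller gave every region a signal value on a scale that the sources used here do not define, and rank 1 is the highest signal value of a list. Signal values ran from 65.3 to 975 in the optimal list, with a median of 102. The optimal and pooled lists give the same regions the same signal values. The highest signal value was 975 in the pooled list, 601 in replicate 3 and 404 in replicate 4, so replicates are compared by rank. Read depth per library is unknown from these files, and recovery in each replicate is the measure of precision. A region was assigned to a gene when its summit lay between 2000 bp upstream of the gene and the end of the gene, a stretch called the gene window. Positions are 1-based on ce11, and a minus sign marks bases upstream of a 5′ end.

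Of the 10 genes, 7 had at least 1 optimal site, where 12.0% of all protein-coding genes had one. The 7 were ins-14, ins-39, daf-2, akt-1, daf-16, hlh-30 and aak-2. Together they held 14 optimal sites: 5 at daf-16, 4 at hlh-30 and 1 at each of the others, so 2 of the 10 had more than 1 (1.42% of all protein-coding genes). The genes age-1, daf-18 and pqm-1 had none. Long genes have more room for sites: among the 263 genes with a window of at least 20000 bp the share with a site was 33.5%, and among the 9856 with a window under 4000 bp it was 8.42%. The windows of daf-2, daf-16 and hlh-30 were 48333, 28206 and 22159 bp long, against a median of 4027 bp, and those of ins-14 and ins-39 were 2380 and 2664 bp. With 1000 bp upstream in place of 2000 the count was 7 of 10 (9.81% of all protein-coding genes), and with 500 bp it was 6 (8.36%). Among the 1147 strongest optimal sites it was 5 (7.05%). With the 2294 strongest regions of 1 replicate in place of the optimal list it was 7 for replicate 4 (11.6%) and 6 for replicate 3 (11.7%).

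Sequences of the 9 optimal sites at genes other than daf-16 are shown so that the summits can be compared base by base. Each run is the 101 bp centred on the summit, read 5′ to 3′ on the strand of the gene from the WBcel235 assembly, which is ce11. Capitals mark matches on either strand to the 7 motifs searched, which are named further on, and to CAGCTG, which was added after the sequences were seen.
ins-39, chrX:1344999-1345099, minus strand: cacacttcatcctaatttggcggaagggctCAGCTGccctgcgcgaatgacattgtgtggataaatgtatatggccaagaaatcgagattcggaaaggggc
ins-14, chrII:6745938-6746038, minus strand: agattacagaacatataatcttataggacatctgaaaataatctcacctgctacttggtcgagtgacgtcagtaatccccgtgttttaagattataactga
daf-2, chrIII:3037451-3037551, minus strand: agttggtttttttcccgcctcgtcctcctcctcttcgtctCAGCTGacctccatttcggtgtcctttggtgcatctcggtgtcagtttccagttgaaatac
akt-1, chrV:10249198-10249298, plus strand: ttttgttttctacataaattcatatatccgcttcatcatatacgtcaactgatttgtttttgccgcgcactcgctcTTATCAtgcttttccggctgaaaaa
hlh-30 promoter, chrIV:4035007-4035107, minus strand: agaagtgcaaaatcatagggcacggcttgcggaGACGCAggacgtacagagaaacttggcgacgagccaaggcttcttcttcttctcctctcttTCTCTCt
hlh-30 intron, chrIV:4028304-4028404, minus strand: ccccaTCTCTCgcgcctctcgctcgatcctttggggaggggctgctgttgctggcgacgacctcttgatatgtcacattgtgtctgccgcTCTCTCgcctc
hlh-30 intron, chrIV:4024278-4024378, minus strand: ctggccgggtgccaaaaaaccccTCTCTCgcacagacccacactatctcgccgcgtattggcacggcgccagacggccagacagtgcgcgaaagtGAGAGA
hlh-30 intron, chrIV:4020086-4020186, minus strand: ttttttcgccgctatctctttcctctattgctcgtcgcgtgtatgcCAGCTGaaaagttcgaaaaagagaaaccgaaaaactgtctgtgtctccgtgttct
aak-2, chrX:16796954-16797054, plus strand: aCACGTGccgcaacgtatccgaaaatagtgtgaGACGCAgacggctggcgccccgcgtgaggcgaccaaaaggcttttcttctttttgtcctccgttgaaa

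Both insulin-like peptide genes had a site upstream of their annotated 5′ end. The ins-39 site (WBGene00017668, X:1343758-1344421, minus strand) was the strongest of the 14. It spanned X:1344954-1345129 with its summit 628 bp upstream, a signal value of 322 and rank 126, which placed it in the top 5.49% of optimal sites. Its signal value was 181 in replicate 3 (rank 170) and 132 in replicate 4 (rank 96), so both replicates held it among their strongest regions. At 176 bp it was narrower than the other 13 sites, which were 384 bp wide. No other pooled region lay in the ins-39 window, and no other protein-coding gene had its promoter at this summit.

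The ins-14 site (WBGene00002097, II:6745435-6745814, minus strand) spanned II:6745796-6746179, with its summit 174 bp upstream of ins-14. Its signal value was 115 (rank 932), with 71.3 in replicate 3 (rank 1008) and 32.3 in replicate 4 (rank 1658). Both replicates supported it, at a lower rank in replicate 4. The summit also lay in the promoter window of F41G3.5 and 1240 bp upstream of ins-15, another insulin-like peptide gene, so position alone does not give the site to 1 gene. A promoter window here runs from 1000 bp upstream to 200 bp downstream of any transcript's 5′ end.

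The receptor gene daf-2 (WBGene00000898, III:2994514-3040846, minus strand) is the longest of the 10, with 7 transcripts that start at 7 different 5′ ends. Its optimal site spanned III:3037309-3037692, in an intron. The summit lay 3345 bp downstream of the 5′ end of Y55D5A.5c.1, the longest transcript, and 8701 bp upstream of that of Y55D5A.5a.1. The other 5′ ends were 8799 to 36189 bp away, so the site was at no annotated daf-2 promoter. Its signal value was 92.3 (rank 1357), with 63.4 in replicate 3 (rank 1215) and 24.1 in replicate 4 (rank 2947). Replicate 3 placed it among its 2294 strongest regions and replicate 4 did not. The summit also lay inside linc-143, a long noncoding RNA gene.

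A neighbouring region of daf-2 just missed the optimal list. It had its summit at III:3036284, 4562 bp downstream of the same 5′ end, with a pooled signal value of 63.1 and rank 2403. There the replicates were the other way round, with rank 5301 in replicate 3 and rank 1358 in replicate 4. Another intron region, 6043 bp downstream, ranked 3068 in the pooled list and 2585 in replicate 3, with no summit within 100 bp in replicate 4. An overlapping region of replicate 4, with its summit farther off at III:3034660, ranked 5939. The remaining 14 pooled regions of daf-2 ranked 4616 or lower.

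Among the kinase cascade genes, akt-1 had a site and age-1 and daf-18 had none. The akt-1 site (WBGene00000102, V:10248905-10252845, plus strand) spanned V:10249056-10249439, in an intron. Its summit lay 292, 341 and 343 bp downstream of the 3 annotated 5′ ends, just past the promoter window. The signal value was 79.8 (rank 1701), with 41.3 in replicate 3 and 33.2 in replicate 4. Replicate 4 held it at rank 1573 and replicate 3 at rank 2358, a little below its 2294 strongest regions.

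The gene age-1 (WBGene00000090, II:11519328-11527054, minus strand) had 2 weaker pooled regions. The stronger lay 290 bp upstream of the gene with a signal value of 38.1, at rank 5727 of the pooled list, 6114 in replicate 3 and 12983 in replicate 4. The other lay in an intron and ranked 10427. At daf-18 (WBGene00000913, IV:420011-425177, minus strand) the 1 pooled region lay 316 bp upstream, with a signal value of 39.0 and rank 5451. Replicate 3 ranked it 3299, whereas replicate 4 had no region anywhere in the daf-18 window. Pooled regions, optimal or weaker, were common: all 10 genes, and 68.6% of protein-coding genes, had at least 1 in their window. At ins-39 the only one was its optimal site.

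**Figure D1:**
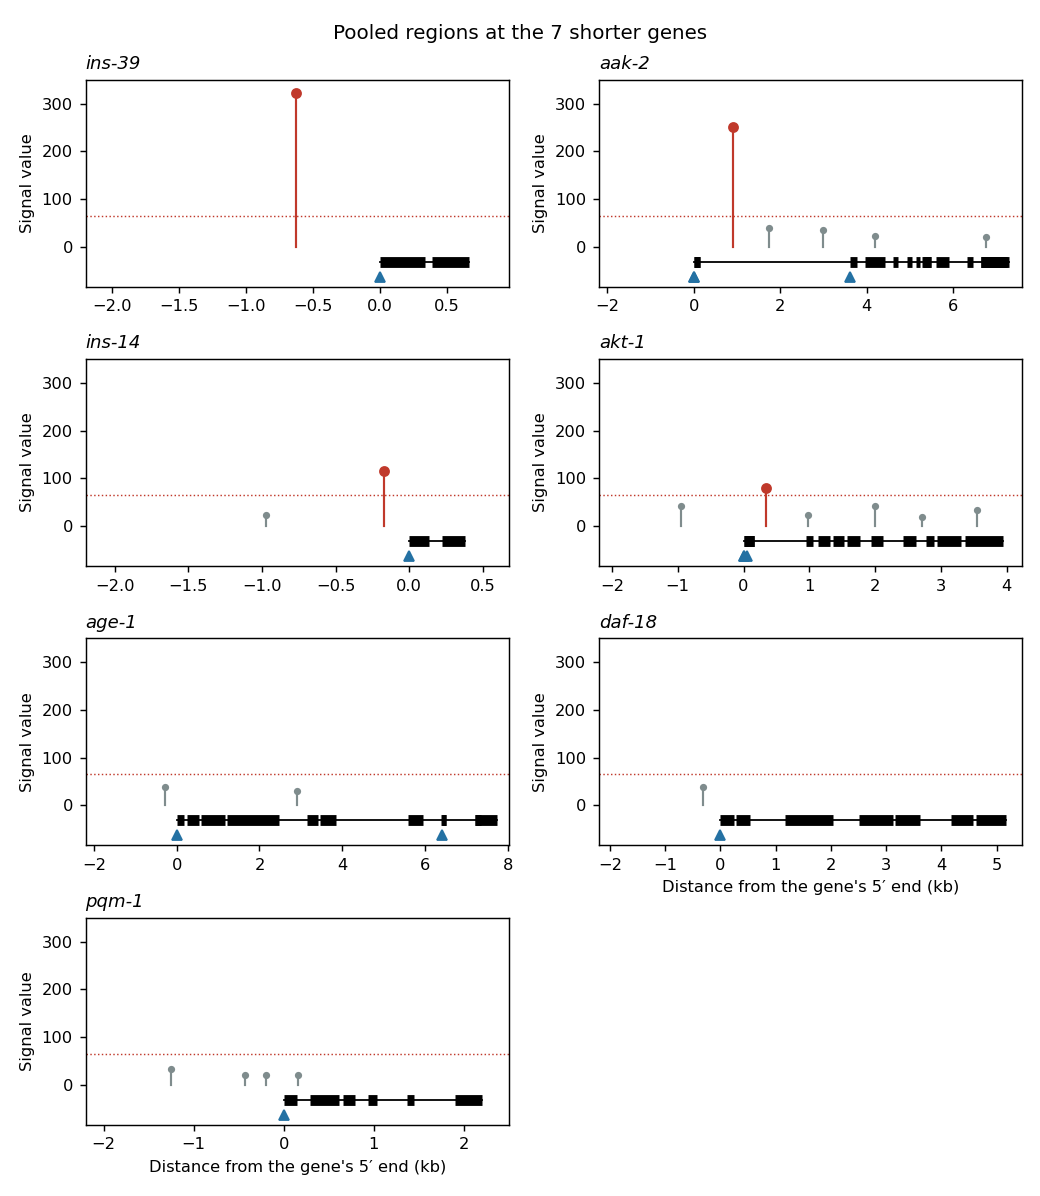
Signal value of every pooled region (vertical axis, authors' units) against distance of its summit from the 5′ end of the gene in the direction of transcription (kb), for the 7 shorter genes. Red stems are optimal sites, grey stems weaker pooled regions, the dotted line the lowest optimal signal value (65.3), black boxes exons and blue triangles transcript 5′ ends. The ins-39 and aak-2 sites stand at 322 and 250, and age-1, daf-18 and pqm-1 have no stem above the line.

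The FOXO gene daf-16 (WBGene00000912, I:10750498-10776703, plus strand) held 5 optimal sites, a number reached by 11 of 19973 protein-coding genes (0.0551%). Its 11 transcripts start at 7 different 5′ ends spread over the gene. The strongest site, I:10754386-10754769, lay in an intron, 3618 bp downstream of the nearest 5′ end (that of R13H8.1d.1 and R13H8.1k.1) and 8525 bp upstream of that of R13H8.1b.1. Its signal value was 156 (rank 563), with 103 in replicate 3 (rank 545) and 51.9 in replicate 4 (rank 726). It was the daf-16 site on which the replicates were closest.

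The other 4 daf-16 sites were about as strong as each other, with signal values from 81.3 to 91.0, and the replicates ranked them less alike. The upstream site, I:10749868-10750251, had its summit 438 bp upstream of the 5′ end of R13H8.1h.1, 572 bp upstream of R13H8.1f.1 and 900 bp upstream of R13H8.1d.1. It ranked 1630, with rank 1347 in replicate 3 and 3633 in replicate 4, and lay inside the noncoding RNA genes H36N01.1 and H36N01.4. This was the sole optimal site of daf-16 in a promoter window. The site I:10756414-10756797, 5646 bp downstream of the nearest 5′ end, ranked 1661. Its replicate summits were 80 and 100 bp away from the pooled summit, at rank 1277 in replicate 3 and 2263 in replicate 4. It is counted as found in both replicates, but with 50 bp as the limit it would not be.

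The site I:10757431-10757814 lay 5480 bp upstream of the 5′ end shared by R13H8.1b.1 and R13H8.1c.1, also in an intron, and ranked 1418. Replicate 4 held it at rank 801 and replicate 3 at rank 2935. The last site, I:10769673-10770056, lay 1643 bp upstream of R13H8.1a.1 and ranked 1392, with rank 1150 in replicate 3 and 3461 in replicate 4. Both replicates thus placed 2 of the 5 daf-16 sites among their 2294 strongest regions, replicate 3 alone placed 2 there and replicate 4 alone 1. The gene also had 15 weaker pooled regions, the best at rank 3868, none among the 2294 strongest of either replicate.

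The gene hlh-30 (WBGene00020930, IV:4014793-4034951, minus strand) held 4 optimal sites, a number reached or passed by 20 protein-coding genes (0.100%). Of the 263 genes with a window of at least 20000 bp, 12 (4.56%) had 4 or more, daf-16 and hlh-30 among them. The strongest hlh-30 site, IV:4034865-4035248, was at the promoter of the longest transcripts, 106 bp upstream of W02C12.3d.2 and 273 bp upstream of W02C12.3i.1. Its signal value was 165 (rank 512), with 105 in replicate 3 (rank 528) and 58.0 in replicate 4 (rank 592). It was the steadiest of the 14 sites, with ranks in the replicates that differed by a factor of 1.12.

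The other 3 hlh-30 sites lay in introns. One, IV:4028162-4028545, had its summit 227 bp upstream of the 5′ end shared by W02C12.3b.1 and W02C12.3c.1, so it lay in a second hlh-30 promoter window. It was the weakest of the 14 sites, with a signal value of 68.9 and rank 2135, and it was among the 2294 strongest of neither replicate (rank 2496 in replicate 3 and 3277 in replicate 4). The site IV:4024136-4024519 lay 2735 bp downstream of the 5′ end of W02C12.3d.1. It ranked 1308, with rank 1726 in replicate 3 and 1074 in replicate 4, and so had support from both.

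The third intron site, IV:4019944-4020327, lay 1092 bp upstream of W02C12.3f.1, which starts close to 3 other 5′ ends. It ranked 1941 and rested on replicate 3, where it ranked 1111 with a signal value of 66.4. In replicate 4 the region within 100 bp ranked 24389 with a signal value of 10.6. That replicate's stronger region nearby had its summit at IV:4019872, beyond 250 bp, and ranked 4162. The hlh-30 window held 8 weaker pooled regions, the best at rank 2699.

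**Figure D2:**
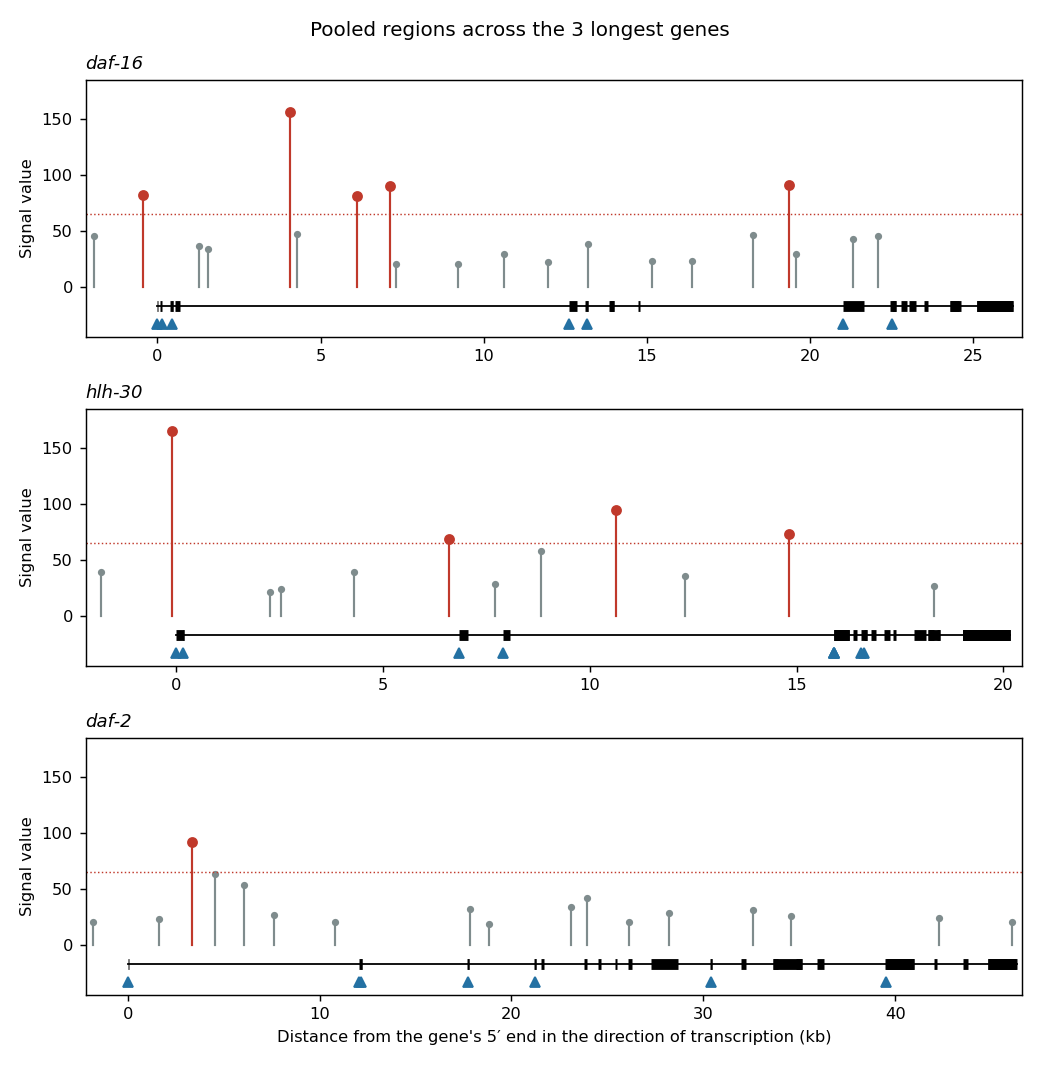
Signal value of every pooled region (vertical axis, authors' units) against distance from the 5′ end of the gene in the direction of transcription (kb), for daf-16, hlh-30 and daf-2. Red stems are optimal sites, grey stems weaker pooled regions, the dotted line the lowest optimal signal value (65.3), black boxes exons and blue triangles transcript 5′ ends. At hlh-30 the highest stem (165) stands at the 5′ end, whereas at daf-16 the highest (156) stands in an intron.

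The zinc finger gene pqm-1 (WBGene00004096, II:11150391-11152595, minus strand) had no optimal site. PQM-1 is known to act on many of the genes that DAF-16 acts on. Its 4 pooled regions had signal values from 20.2 to 32.3, the best 1248 bp upstream at rank 8346. Replicate 3 ranked that region 6899 and replicate 4 had no summit within 100 bp of it. No pqm-1 region was found by both replicates within 100 bp of a pooled summit.

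The energy sensor gene aak-2 (WBGene00020142, X:16796087-16803398, plus strand) had the second strongest of the 14 sites. It spanned X:16796812-16797195, in an intron 917 bp downstream of the 5′ end of T01C8.1a.1 and 2703 bp upstream of that of T01C8.1c.1. Its signal value was 250 (rank 229, the top 9.98% of optimal sites), with 144 in replicate 3 (rank 294) and 99.6 in replicate 4 (rank 193). Both replicates placed their summit 2 bp from the pooled summit. The noncoding RNA gene T01C8.9 lay within 200 bp.

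Across the 14 sites, 4 summits were upstream of the gene, 10 were in introns and 0 in exons. Of the intron summits, 4 lay upstream of the nearest 5′ end, that of a shorter transcript of the same gene. The promoter window held 5 summits, at ins-14, ins-39, daf-16 and hlh-30 (2 at hlh-30), so 4 of the 10 genes had a promoter site, where 8.42% of all protein-coding genes had one. For each of the 14 sites the nearest protein-coding 5′ end belonged to the gene described. Over all protein-coding genes this held for 1829 of 2786 sites, each counted once per gene window that holds it. Counted by gene, 814 of the 2398 genes with an optimal site (33.9%) had none nearest to their own 5′ end. The long genes daf-16 and hlh-30, with 7 and 10 different 5′ ends, held 5 and 4 of the 14 sites.

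Support by replicate was uneven. Both replicates had 7 of the 14 sites (50%) among their 2294 strongest regions, replicate 3 alone had 4, replicate 4 alone had 2, and 1 was in neither set. Over all 2294 optimal sites these shares were 64.8%, 21.4%, 11% and 2.75%. The 7 sites with support from both belonged to 5 genes, ins-39, ins-14, aak-2, hlh-30 and daf-16, where 8.50% of protein-coding genes had such a site. Ranks in the replicates differed by a median factor of 1.71 at the 14 sites and of 1.65 at the 2146 optimal sites with a summit in both lists. The largest factor, 22, was that of the hlh-30 intron site near W02C12.3f.1.

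**Figure D3:**
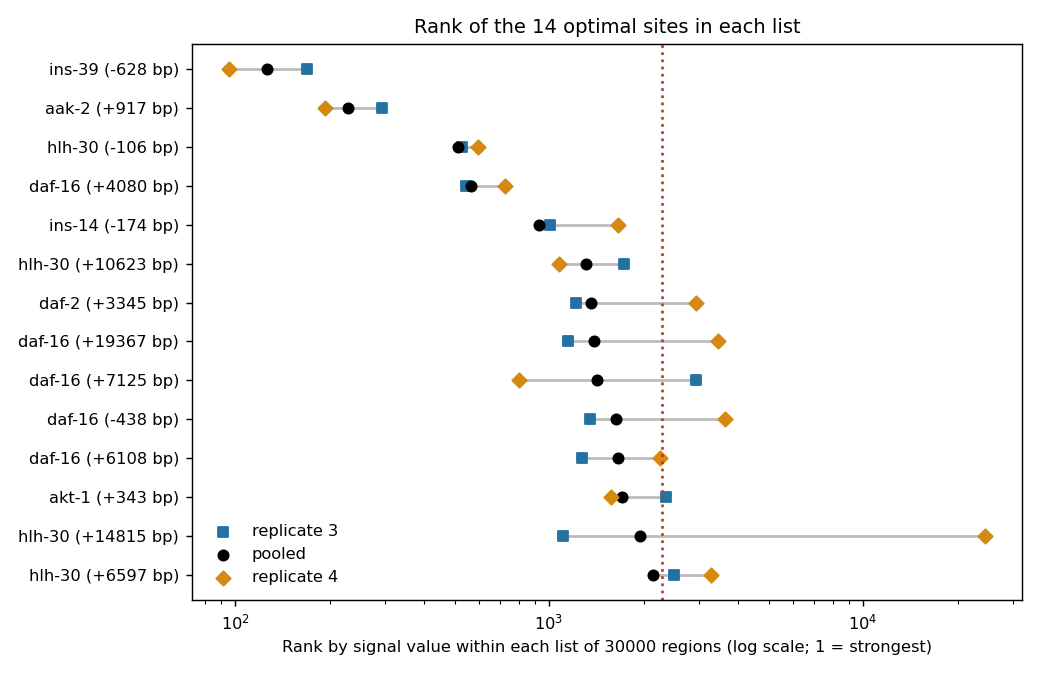
Rank by signal value of each of the 14 optimal sites in the list of replicate 3 (blue squares), both replicates pooled (black circles) and replicate 4 (orange diamonds), on a log scale where 1 is strongest. Labels give the gene and the distance of the summit from the 5′ end of the gene, and the dotted line marks rank 2294. The ins-39, aak-2, hlh-30 promoter and strongest daf-16 sites lie left of the line in every list, and the weakest hlh-30 site lies right of it in both replicates.

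The sequences at the summits were searched on both strands within 50 bp. GTAAACA, and TGTTTA, whose reverse complement lies within it, are known as DAF-16 binding sequences. TGATAA is the core bound by GATA factors and part of the element linked to PQM-1. CACGTG is an E-box bound by HLH-30, and AACAAT is bound by SOX proteins. GAGAGA and GACGCA were included because they were frequent at these sites in earlier results. GAGAGA lay at 4 of the 14 sites (25.4% of all optimal sites and 6.96% of 27706 weaker pooled regions), at 3 of the hlh-30 sites and the daf-16 site nearest R13H8.1a.1. GACGCA lay at 2, those of aak-2 and the hlh-30 promoter (15.3% and 2.89%).

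CACGTG lay at 2 sites, those of aak-2 and the strongest daf-16 site (4.27% of optimal sites and 1.97% of weaker regions). In the aak-2 sequence above it stands at the outer end of the run, away from the summit. GTAAACA, with the TGTTTA inside it, lay at 1 site, upstream of daf-16 (1.18% and 1.33% for GTAAACA). On the opposite strand, TGATAA was found at 1 site, that of akt-1 (4.36% and 10.5%). Of the 14 sites, 0 held AACAAT (6.15% and 12.1%). One or more of the 7 motifs was present at 8 of 14 sites, against 48% of optimal sites and 35.6% of weaker regions. A match is not evidence of binding by the named factor, and a missing match says nothing about it. GC content within 50 bp of the summit ran from 35.6% at ins-14 to 62.4% at an hlh-30 intron site, with a median of 49.5%, against 46.5% over all optimal sites and 34.7% over weaker regions.

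The 10 genes were set beside 8 lists of pathway genes, 124 genes in all with the 10 included. An optimal site lay in the window of 34 of them (27.4%, against 12.0% of all protein-coding genes), and 27 of these were among the 114 other genes. A promoter site was found at 17 (8.42% of all protein-coding genes). The windows of the 124 had a median of 4108 bp, but this differed by list, from 2655 bp for the 39 peptide genes to 8962 bp for the receptor and kinase cascade. The median was 7030 bp for the L1 arrest list, 6757 bp for the TOR list and 5209 bp for DAF-16 and its partners, all longer than the 4027 bp of all genes, so these shares are not matched for length. Of the 27 other genes, 11 (40.7%) had no site nearest to their own 5′ end, so sites near them may belong to neighbours. The lists, like the 10 genes, were chosen with earlier results of these data known, and these are counts without a test.

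Among 39 insulin-like peptide genes, 4 had a site: ins-39, ins-14, ins-15 through the site it shares with ins-14, and ins-1. The ins-1 site lay 395 bp upstream with a signal value of 79.7 (rank 1705), at rank 1469 in replicate 3 and 2910 in replicate 4. Of the 37 peptide genes not described above, 2 had a site. The share of the whole list, 10.3%, was near that of all protein-coding genes (12.0%) and of those with windows under 4000 bp (8.42%). The median window of the list was 2655 bp.

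In the receptor and kinase cascade, 6 of 10 genes had a site, against 12.0% of all protein-coding genes. In a promoter window 0 had one, against 8.42%. Beside daf-2 and akt-1 these were ist-1, aap-1, pdk-1 and pptr-1. The gene ist-1, which encodes an insulin receptor substrate homologue, had 2 intron sites (ranks 1184 and 1273), both supported by both replicates. The site of pdk-1, the kinase that activates AKT, lay 1823 bp inside the gene at rank 1535. That of pptr-1, which encodes a phosphatase subunit acting on AKT-1, lay 1449 bp upstream at rank 487, with rank 502 in replicate 3 and 476 in replicate 4. The site in the window of aap-1, the adaptor subunit of AGE-1, lay 14 bp upstream of use-1 and 1653 bp upstream of aap-1. Both replicates supported a site at 2 of the 6 genes, ist-1 and pptr-1. The pdk-1 site was supported by replicate 3 alone (rank 1254, and 2579 in replicate 4), as was the aap-1 site (1569 and 2940).

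Of 10 genes for DAF-16 and its partners, 5 had a site, against 12.0% of all protein-coding genes. The 14-3-3 protein genes ftt-2 and par-5, whose products bind phosphorylated DAF-16, had sites 785 and 114 bp upstream. The par-5 summit also lay in the promoter window of M117.3 and inside M117.11 and M117.12. This ftt-2 summit also lay inside F52D10.9. The ftt-2 site had a signal value of 380 and rank 75 (113 in replicate 3 and 49 in replicate 4), above every site of the 10 genes, and a neighbouring ftt-2 site had rank 285. The site in the window of smk-1, which encodes a DAF-16 cofactor, lay nearer to vps-60. The sir-2.1 site, 60 bp upstream of this deacetylase gene, ranked 2211 and had no replicate 3 summit within 100 bp.

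Of 11 genes for subunits and upstream regulators of the AMP-activated kinase, 2 had a site, against 12.0% of all protein-coding genes. They were aak-2 and the gamma subunit gene aakg-1. The latter had 3 intron sites, the strongest at rank 293, all supported by both replicates. The TOR pathway list had 5 of 10, against the same 12.0%. Its flcn-1 (folliculin) had 3 sites, the best 143 bp upstream at rank 1166, of which the one at rank 1571 lay nearer to F22D3.4. The flcn-1 sites at ranks 1571 and 1858 were supported by replicate 3 alone. The gene daf-15 (Raptor) had a site 14 bp downstream of its 5′ end at rank 1735. The site in the window of let-363 (TOR kinase) lay 1468 bp upstream of it and 8 bp upstream of mrpl-47. Replicate 4 alone supported the let-363 site. Those of rict-1 (Rictor) and rheb-1 (a GTPase that activates TOR) lay in promoter windows shared with a neighbour. The rict-1 site, at rank 263, was 509 bp upstream of rict-1 and 164 bp upstream of gfm-1. The rheb-1 site, at rank 425, was 291 bp upstream of rheb-1 and 287 bp upstream of spk-1.

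The autophagy list, which includes hlh-30, had 6 of 20, against 12.0% of all protein-coding genes. The Atg8 family gene lgg-2 had 3 sites, the strongest with a signal value of 286 at rank 181, and the one at rank 1149 lay nearer to fic-1. The related gene lgg-1 had 2, of which the one 202 bp upstream had no replicate 3 summit within 100 bp. The kinase gene unc-51 had a site 1435 bp upstream at rank 217. The sites in the windows of atg-7 and sqst-1 lay nearer to klc-1 and mrpl-51. Of 9 regulators of L1 arrest and recovery, 4 had a site, against the same 12.0%. That of the nuclear receptor gene daf-12 lay 1713 bp from a 5′ end, in an intron, at rank 407. That of the fat metabolism receptor gene nhr-49 lay 331 bp upstream at rank 1498, below the strongest regions of replicate 4 (rank 3139). The site of lin-35, the Rb homologue, lay in a promoter window shared with vps-51, at rank 170. It was 224 bp upstream of lin-35 and 194 bp upstream of vps-51. The site in the window of daf-9 lay nearer to ceh-54. Of 15 known DAF-16 target genes, 2 had a site (13.3%), near the 12.0% of all protein-coding genes. One was mdl-1, 119 bp upstream at rank 770 and with a second site at rank 1794. The other was gpd-2, through a site in mai-1.

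**Figure D4:**
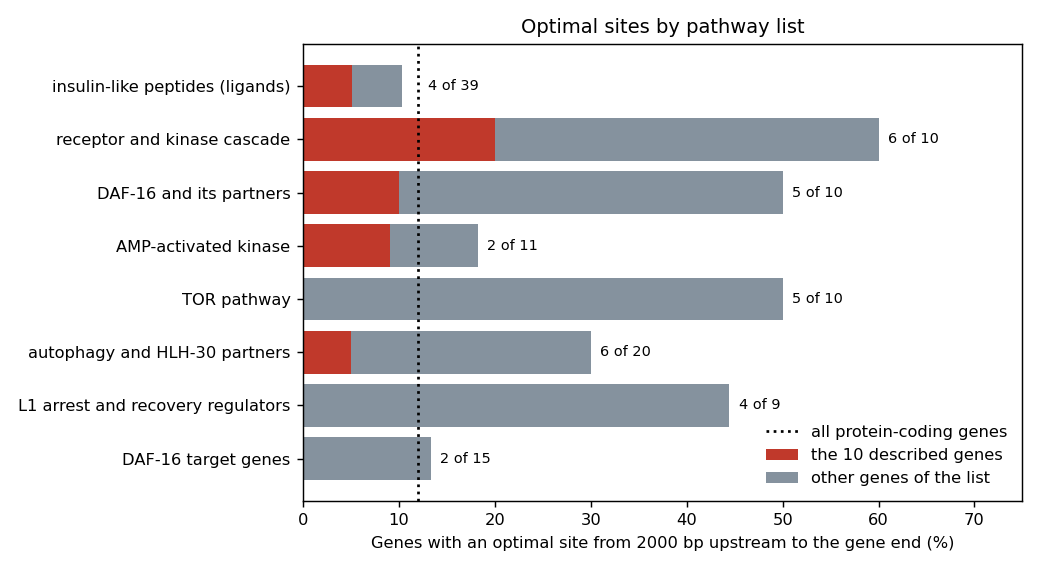
Share of the genes of each pathway list with an optimal site from 2000 bp upstream to the end of the gene (horizontal axis, percent), split into the 10 described genes (red) and the others (grey), with counts at the bars. The dotted line is the share of all protein-coding genes (12.0%). The receptor and kinase cascade stands at 6 of 10, and the insulin-like peptides, at 4 of 39, are near the line.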

How the data were processed

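The libraries were 2 ChIP-seq libraries of L1 larvae. The authors deposited narrowPeak lists on ce11 and ce10, made from each replicate's alignment and a further file whose kind is not named, per the deposited file descriptions, which list possible controls for the experiment: 30000 regions per replicate and for both pooled, and the optimal list after IDR, which scores how reproducibly regions rank in both replicates. The sources used here name no aligner, peak caller or threshold. The deposited signal value ranked regions within a list. The deposited −log10 q was at its maximum for 1134 optimal sites and was not used to rank. The ce10 lists were not used. Chromosome lengths of WBcel235 held every ce11 region.

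Genes came from Ensembl release 115. Replicate support is the strongest replicate summit within 100 bp of the pooled summit. Named genes were the 10 members, every list gene with an optimal site, and genes at the members' sites. The members and lists were chosen with earlier results of these data known. With 1 group there was no test across samples, and none was made over gene sets. Window counting and motif counting were tested on simulated data. Alternatives covered window, threshold, summit distance, motif reach and each replicate alone. Computation used Python 3.11.15, NumPy 2.4.6, pandas 2.3.3 and matplotlib 3.10.9.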

Additional observations from a re-analysis of the deposited data

How the results depend on the processing

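Of the 10 genes, 7 had a site with the window reaching 1000 bp upstream, 6 with 500 bp, 5 among the 1147 strongest optimal sites, and 5 with support from both replicates, a setting added once the data had been seen. With the promoter window alone there were 4. The 124 pathway genes went from 34 to 21 (500 bp), 17 (promoter window), 19 (1147 strongest) and 98 (any pooled region). The 39 insulin-like peptide genes went from 4 to 2 (500 bp) and 23 (any pooled region). Of all protein-coding genes, the share went from 12.0% to 8.36% (500 bp), 8.42% (promoter window), 7.05% (1147 strongest) and 68.6% (any pooled region). Leaving out 1 replicate gave 6 to 7 of the 10 genes, 32 to 35 pathway genes and 4 to 5 peptide genes. Of all protein-coding genes it gave 11.6% to 11.7%. Without replicate 4, akt-1 was lost. Without replicate 3, daf-2 kept a site through its other region at rank 1358. Motif-bearing sites went from 8 to 5 within 25 bp, against 28% of all optimal sites and 19.5% of weaker pooled regions. Within 100 bp they numbered 12, against 69.3% and 58.1%. The 5 genes with support from both replicates numbered 4 when a site had to be among the 1147 strongest of the optimal list and of each replicate. They numbered 5 at the other summit distances. No paired analysis was possible because there is 1 group. Read depth, lists from untagged worms and signal tracks were not analysed here, so recovery that does not depend on EGL-13 was not tested.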

Other observations

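Of the 20 protein-coding genes with 4 or more optimal sites in their window, the highest numbers were 8 at ppfr-1 and 8 at vhp-1, a phosphatase of MAP kinases, then 7 at cab-1 and 7 at pqn-41, and 6 at C17E4.6 and 6 at scd-1. The other genes with 5, beside daf-16, were Y111B2A.12, cox-6B, crh-1 and lin-14. The other genes with 4, beside hlh-30, were T28B11.1, cct-5, cla-1, kin-1, mbk-2, pde-6, tent-5 and zfp-1. Windows of the 20 genes ran from 10565 to 89197 bp, all above the median of 4027 bp.

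CAGCTG, noticed in the printed sequences and so chosen after they were seen, lay within 50 bp of the summit at 3 of the 14 sites, those of ins-39, daf-2 and the hlh-30 intron site near W02C12.3f.1. Within 50 bp it lay at 3.36% of all optimal sites and 2.13% of weaker pooled regions. Within 25 bp it lay at the same number of sites, 3, against 2.14% and 0.989%, and within 100 bp at 3 against 5.54% and 4.08%. No test was made, because the motif was picked from these sequences.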
